A study of Mus musculus with 20 samples.

Results

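RNA of the hippocampus from 5 *Ube3aOE* and 5 WT mice was sequenced at postnatal day 7 (P7), and the effect of extra *Ube3a* was examined across all genes with emphasis on pathways and cell-type programs. These 10 hippocampus libraries are all that the series holds for this tissue, out of 20 libraries in total, and the other 10 are the cortex libraries of the same 10 mice. The mice, all C57Bl/6J, are numbered 1 to 5 (WT) and 6 to 10 (*Ube3aOE*) in the labels, 1 library per mouse, and both tissues were dissected from the pups. *Ube3aOE* mice, here of the genotype also written *Ube3a*+2, keep their endogenous gene and carry additional copies of *Ube3a* in a floxed transgene built from a bacterial artificial chromosome (BAC), which includes sequence around the gene. The labels do not name the founder line behind these libraries. The total count on genes ranged from 15879181 to 16752326 reads per library in WT and from 15650861 to 16698215 in *Ube3aOE* mice. Levels are given as TMM-normalized CPM, the share of a library's gene reads scaled to 1e+06, and a log2 fold change is always *Ube3aOE* minus WT.

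*Ube3a* encodes an E3 ubiquitin ligase of the HECT family, which hands ubiquitin from a ubiquitin-conjugating (E2) enzyme to a substrate that is then often degraded by the proteasome. In neurons only the maternal allele is expressed, because an antisense transcript silences the paternal one, while glia use both alleles. UBE3A is found in the nucleus as well as the cytosol, it interacts with the proteasome, and its loss or gain has been tied to synaptic, mitochondrial and transcriptional readouts. At P7 the mouse hippocampus still adds dentate granule neurons, oligodendrocyte precursors have only begun to form myelin, and synapses are being made in large numbers. Lists of genes were therefore drawn up for the ubiquitin pathway, for respiration and translation, for chromatin, for synapses and channels, and for 21 cell types or tissues, among them the tissues that lie against the hippocampus and can be taken along in a dissection.

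Extra *Ube3a* was measured first, since it checks the labels. *Ube3a* lies on chr7:59228750-59311536 on the plus strand (GRCm38). It was at 71.3, 78.6, 58.2, 61.5 and 61.0 CPM in WT mice 1 to 5 and at 146, 151, 187, 146 and 198 CPM in *Ube3aOE* mice 6 to 10. All *Ube3aOE* libraries lay above all WT libraries. The mean was 66.1 ± 8.54 CPM in WT and 165 ± 24.9 CPM in *Ube3aOE* mice (SD, n = 5 each), and *Ube3a* rose 2.50-fold (95% CI, 2.12 to 2.95; log2 fold change 1.32, SE 0.11, adjusted *P* = 0.000441, edgeR quasi-likelihood test over 15220 genes; two-sided exact permutation *P* = 0.00794, the smallest that 5 against 5 allows). The cortex of the same mice gave a log2 fold change of 1.31 (SE 0.11), and the interaction of genotype and tissue had a log2 value of 0.01 with an SE of 0.17. Whether the counting used strand is not given in the sources used here, so reads of the antisense transcript over *Ube3a* cannot be told apart from those of the gene.

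The start of *Ube3a* is shown because the transgene includes sequence around the gene. The window holds 250 bases before and 50 bases after the gene's start as RefSeq places it (GRCm38.p6, plus strand, chr7:59228500-59228799), and capitals mark the only match to the 3 motifs searched, an AAGATGGCG motif of YY1, a transcription factor of many housekeeping genes.
Ube3a: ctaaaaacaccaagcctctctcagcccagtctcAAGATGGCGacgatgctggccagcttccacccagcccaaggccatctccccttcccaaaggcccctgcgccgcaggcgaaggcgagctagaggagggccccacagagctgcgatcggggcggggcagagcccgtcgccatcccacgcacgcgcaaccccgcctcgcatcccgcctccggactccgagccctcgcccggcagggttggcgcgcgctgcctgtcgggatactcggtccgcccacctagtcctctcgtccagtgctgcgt

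No other gene passed the test. Of the 15220 genes tested, 1 had an adjusted *P* value under 0.05, which is 0.00657% of them (edgeR). At an unadjusted *P* value under 0.05, 565 genes (3.71%) were higher and 533 genes (3.5%) were lower in *Ube3aOE* hippocampus. In 76 genes (0.499%) all *Ube3aOE* values lay above all WT values, and in 106 genes (0.696%) all lay below. Over all genes tested, 7715 (50.7%) had a positive log2 fold change and 7505 a negative one. These shares are the background for the lists that follow. A member of a list is called at the unadjusted threshold only to be counted against that background, and no list is tested as a whole. Every adjusted *P* value printed after *Ube3a* in this fit is 0.668 or higher, so the other genes are given as values and not as changes.

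Before the lists, the libraries were checked against their labels. The sex-linked genes went against the labelled sex in 2 WT mice. The hippocampus library of mouse 3, labelled male, had 0 counts of the Y-linked *Ddx3y* and 120 CPM of *Xist*, the RNA that coats the inactive X chromosome, and that of mouse 5, labelled female, had 45.9 CPM of *Ddx3y* and no *Xist*. The other 8 hippocampus libraries had these genes as their label says. The cortex libraries of mice 3 and 5 went against the label in the same way, since the median deviation of the sex-linked list from WT was -2.70 in mouse 3, as in mice 1, 4, 7 and 10, and 4.09 in mouse 5, beside 4.01 to 4.25 in mice 2, 6, 8 and 9. Without mice 3 and 5 the *Ube3a* log2 fold change was 1.24 (adjusted *P* = 0.0276, edgeR), and the calls at the unadjusted threshold went from 1098 to 411.

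Genes that mark neighbouring tissue differed widely between libraries of the same genotype. *Ttr*, which encodes the thyroid hormone carrier transthyretin and defines the choroid plexus, was at 7.46, 28.5, 24.5, 1.88 and 3.18 CPM in WT mice 1 to 5 and at 6.91, 1939, 0.482, 331 and 9.55 CPM in *Ube3aOE* mice 6 to 10. Mice 7 and 9 stood apart and the rest of the *Ube3aOE* libraries overlapped with WT. The summed level of the 14 choroid plexus genes behaved alike, at 2047 CPM in mouse 7 and 378 CPM in mouse 9 against 18.8 to 42.0 CPM in the others. Another pair, the folate receptor *Folr1* and the chloride channel gene *Clic6*, reached 14.1 and 15.4 CPM in mouse 7.

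The striatum list was high in mouse 9, and the thalamus and habenula list in WT mouse 4 and *Ube3aOE* mice 7 and 10. *Adora2a*, the adenosine receptor of striatal output neurons, was at 65.6 CPM in mouse 9 and at 3.53 to 6.05 CPM in the other 9 libraries, and *Penk*, the enkephalin precursor, was at 146 CPM in mouse 9 and at 12.3 to 16.1 CPM elsewhere. *Tcf7l2*, a Wnt effector that is high in thalamic and habenular neurons, was at 231 CPM in WT mouse 4 and at 2.90 to 4.57 CPM in the other WT mice, and at 4.89, 276, 47.0, 6.30 and 573 CPM in *Ube3aOE* mice 6 to 10. Genes of cholinergic and septal neurons, such as the choline transporter *Slc5a7* at 5.77 CPM in mouse 9 and 6.87 CPM in mouse 10, followed the same mice, with a summed level of 15.9 to 81.0 CPM in WT and 22.5 to 170 CPM in *Ube3aOE* mice. The neocortical list was highest in WT mouse 2 at 1483 CPM, then in *Ube3aOE* mouse 9 at 1101 CPM, and lay between 610 and 783 CPM in the other 8.

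**Figure D1:**
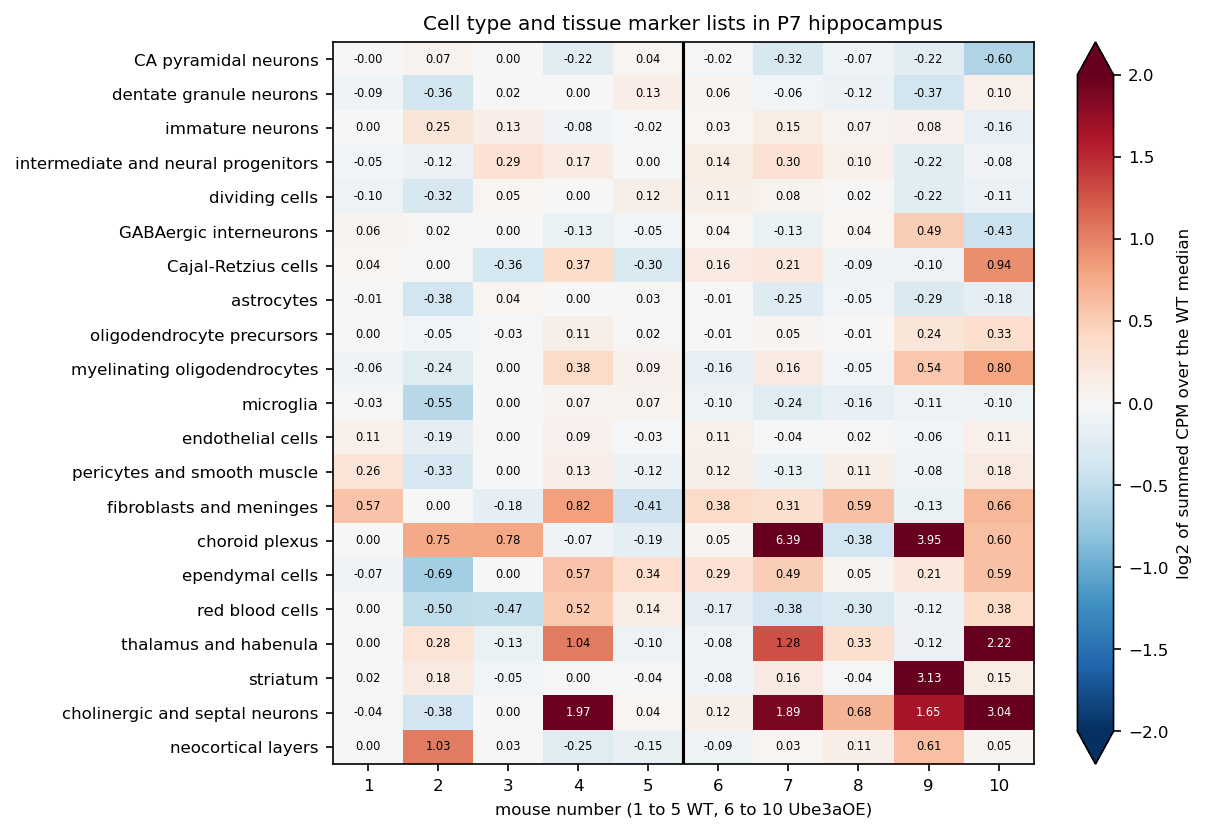
Summed CPM of each cell type or tissue list in each hippocampus library, as log2 of its ratio to the WT median (color and printed value; columns are mice, a black line parts WT from *Ube3aOE*). Choroid plexus genes stand out in mice 7 and 9, striatal genes in mouse 9, thalamic and habenular genes in WT mouse 4 and *Ube3aOE* mice 7 and 10.

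The choroid plexus, cholinergic and septal, striatal and thalamic lists had the 4 highest median log2 fold changes of the lists, while the neocortical list had a median of 0.07. Of the choroid plexus list, 10 of 14 genes passed the filter on low counts, all 10 had a positive log2 fold change and 6 of them were called higher (median 1.39, beside 0.00 over all genes tested). The genes passed through the libraries in which they are high, so this count describes mice 7 and 9. The medians were 1.01 for the 10 striatal genes tested, 0.61 for the 11 genes of thalamus and habenula and 1.10 for the 5 cholinergic and septal genes, with 0, 0 and 3 genes called higher. Without mouse 9 the striatal median was -0.03, and without mouse 10 that of thalamus and habenula was -0.00. The 5 libraries above 2 times the median of all libraries in any neighbour list (WT mice 2 and 4, *Ube3aOE* mice 7, 9 and 10) were therefore left out in an alternative chosen after seeing the data, which leaves 3 WT mice against *Ube3aOE* mice 6 and 8. There the choroid plexus median was 0.04, the striatal median -0.02 and the thalamic median 0.09. The libraries were left out by these same lists, so the lower medians follow from the choice and are no test of the lists. In bulk tissue, fewer cells of a type and less RNA per cell cannot be told apart.

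The genes of the hippocampal neurons themselves were mostly at lower values in *Ube3aOE* libraries. Of the 15 genes that mark pyramidal neurons of the CA fields, 12 had a negative log2 fold change and 2 were called lower (median -0.20). Their summed level was 1789, 1879, 1795, 1537 and 1851 CPM in WT mice 1 to 5 and 1768, 1435, 1713, 1544 and 1182 CPM in *Ube3aOE* mice 6 to 10. The groups overlapped (two-sided exact permutation *P* = 0.0635), mouse 10 was lowest, and mice 7, 9 and 10 were also those high in neighbour genes. *Neurod6*, a transcription factor of pyramidal neurons, was at 199 CPM in mouse 9 and 202 CPM in mouse 10 against 335 to 409 CPM in WT, and *Dkk3*, a secreted glycoprotein high in CA pyramidal cells, had a log2 fold change of -0.32 (SE 0.10). The CA markers *Wfs1*, with a log2 fold change of 0.08 (SE 0.17), and *Fibcd1*, with -0.21 (SE 0.16), lay within 2 SE of no difference. Without the 5 libraries the median of the list was -0.10, with 0 genes called, and in the cortex of the same mice it was 0.10.

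The dentate gyrus showed no call in either direction among its 14 genes (median -0.15). *Prox1*, the transcription factor that specifies granule neurons, was at 69.1 CPM in WT mouse 2 and 76.6 CPM in *Ube3aOE* mouse 9, while the other libraries lay between 137 and 187 CPM. Mouse 2 and mouse 9 were also the libraries with the highest neocortical sums. Immature neurons, marked by *Dcx* and *Sox11*, had a median of -0.04 over 12 genes with 0 calls, and progenitors, marked by genes such as *Eomes*, a median of -0.02 with 1 gene called higher, *Sox2* (0.31, SE 0.12). Among 27 genes of dividing cells the median was 0.01. There *Mki67*, the Ki-67 antigen, was at 9.35 to 13.2 CPM in WT and at 12.7 to 18.5 CPM in *Ube3aOE* mice (log2 fold change 0.39, SE 0.13), whereas *Top2a*, the topoisomerase of dividing cells, had 0.09 (SE 0.11).

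As a list, interneuron genes were highest in *Ube3aOE* mouse 9 and lowest in mouse 10, with median deviations from WT of 0.68 and -0.39 against -0.10 to 0.04 in WT. *Gad1* and *Gad2*, which encode the enzymes that make GABA, were at 289 and 160 CPM in *Ube3aOE* mouse 9 and at 131 and 68.3 CPM in mouse 10, against 167 to 191 and 62.5 to 87.9 CPM in WT. *Gad2* in mouse 10 thus lay within WT, and its lowest value was 59.2 CPM in mouse 7. The striatum, whose output neurons are GABAergic, marked mouse 9 in the lists above. Of the 20 interneuron genes 14 had a positive log2 fold change and 2 were called higher, *Sox6* (0.37, SE 0.14) and *Nxph1* (0.24, SE 0.10). The *Reln* gene of Cajal-Retzius cells ranged from 66.2 to 187 CPM in WT and from 69.8 to 190 CPM in *Ube3aOE* mice.

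Myelin genes were highest in *Ube3aOE* mice 9 and 10. *Mbp*, a main protein of myelin, was at 80.2, 88.2, 83.8, 109 and 88.0 CPM in WT mice 1 to 5 and at 77.2, 95.1, 76.7, 132 and 142 CPM in *Ube3aOE* mice 6 to 10. Of the 16 myelin genes 13 passed the filter, and each of these had a positive log2 fold change, with 2 called higher (median 0.23). *Mag*, an adhesion protein of the inner myelin membrane, had 0.99 (SE 0.42) and *Enpp6*, an enzyme of newly formed oligodendrocytes, 0.72 (SE 0.28). The 3 highest sums belonged to *Ube3aOE* mice 10 (497 CPM) and 9 (418 CPM) and WT mouse 4 (372 CPM), all among the libraries high in neighbour genes, and without the 5 libraries the median was -0.13. The part of neighbouring tissue in this was not tested beyond that.

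Microglial genes were at slightly lower values, with 3 of 18 (16.7%) called lower, beside 3.5% of all genes (median -0.09). *Trem2*, a lipid receptor of microglia, had -0.39 (SE 0.16), *Aif1*, which encodes IBA1, -0.48 (SE 0.19), and *Tyrobp*, the signalling adaptor of TREM2, -0.28 (SE 0.11). The surface receptors *Cx3cr1* (-0.03, SE 0.14) and *P2ry12* (0.05, SE 0.15) lay within 1 SE of no difference. The astrocyte genes *Aqp4* (0.01, SE 0.18) and *Slc1a3* (-0.12, SE 0.11) lay within 2 SE of no difference. Of 16 astrocyte genes 1 was called higher, *Aldh1l1* (0.20, SE 0.08), and 1 lower, *Aldoc* (-0.19, SE 0.07). Without WT mice 3 and 5 the microglial median was 0.01 with 0 calls, in a fit that called 1.17% of all genes lower. With the trend on the longest transcript removed 1 microglial gene was called. Without the 5 libraries high in neighbour genes, WT mouse 2 among them, the microglial median was -0.16 with 2 called lower. That fit called 1.92% of all genes lower. Without mouse 2 alone the microglial median was -0.18. WT mouse 2 had the lowest sums of all libraries for astrocytes (3229 CPM) and microglia (258 CPM). Endothelial genes, such as the tight junction gene *Cldn5*, gave 0 calls of 16.

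Nuclear genes of respiration were mostly at lower values. Oxidative phosphorylation (OXPHOS) passes electrons through complexes I to IV of the inner mitochondrial membrane and uses the resulting proton gradient to make ATP in complex V. Of 76 nuclear genes of these complexes, all of them tested, 72 had a negative log2 fold change and 25 were called lower, with 0 called higher (median -0.11; 32.9% called lower, beside 3.5% of all genes). The calls were 10 of 36 in complex I, 1 of 4 in complex II, 3 of 9 in complex III, 7 of 11 in complex IV and 4 of 16 in complex V. The differences were small, and the lowest single value of the 76 was -0.28.

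*Cox7a2*, a small subunit of cytochrome c oxidase (complex IV), was at 194, 204, 192, 186 and 182 CPM in WT mice 1 to 5 and at 167, 187, 145, 146 and 143 CPM in *Ube3aOE* mice 6 to 10. All *Ube3aOE* values but that of mouse 7 lay below all WT values (log2 fold change -0.28, SE 0.08, adjusted *P* = 0.668, edgeR). The complex IV genes *Cox6c* and *Ndufa4* gave -0.26 (SE 0.08) and -0.25 (SE 0.08). In complex I, *Ndufa2* had -0.26 (SE 0.09), *Ndufb3* -0.24 (SE 0.08) and *Ndufb4* -0.22 (SE 0.07). *Sdhd*, which anchors complex II in the membrane, was at 159 to 176 CPM in WT and 138 to 163 CPM in *Ube3aOE* mice. The complex III subunit genes *Uqcr10* and *Uqcr11* had -0.20 (SE 0.07) and -0.26 (SE 0.09). In complex V, *Atp5j2* was the only OXPHOS gene whose groups did not overlap, with 68.9 to 75.3 CPM in WT and 54.9 to 67.2 CPM in *Ube3aOE* mice. It was followed by *Atp5e* at -0.25 (SE 0.08).

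The OXPHOS genes did not separate every *Ube3aOE* mouse from WT. For each library the median over the list of log2 CPM minus the gene's WT mean was taken. It was -0.03, -0.01, 0.02, 0.03 and 0.00 in WT mice 1 to 5 and -0.06, 0.03, -0.18, -0.15 and -0.21 in *Ube3aOE* mice 6 to 10. Mice 8, 9 and 10 lay far below WT, mouse 6 just below, and mouse 7 within the WT values. The genes that the mitochondrion itself encodes, 10 of 13 tested, had a median log2 fold change of -0.00 with 0 calls, and ranged widely in both genotypes, with -0.36 to 0.39 in WT and -0.35 to 0.34 in *Ube3aOE* mice.

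**Figure D2:**
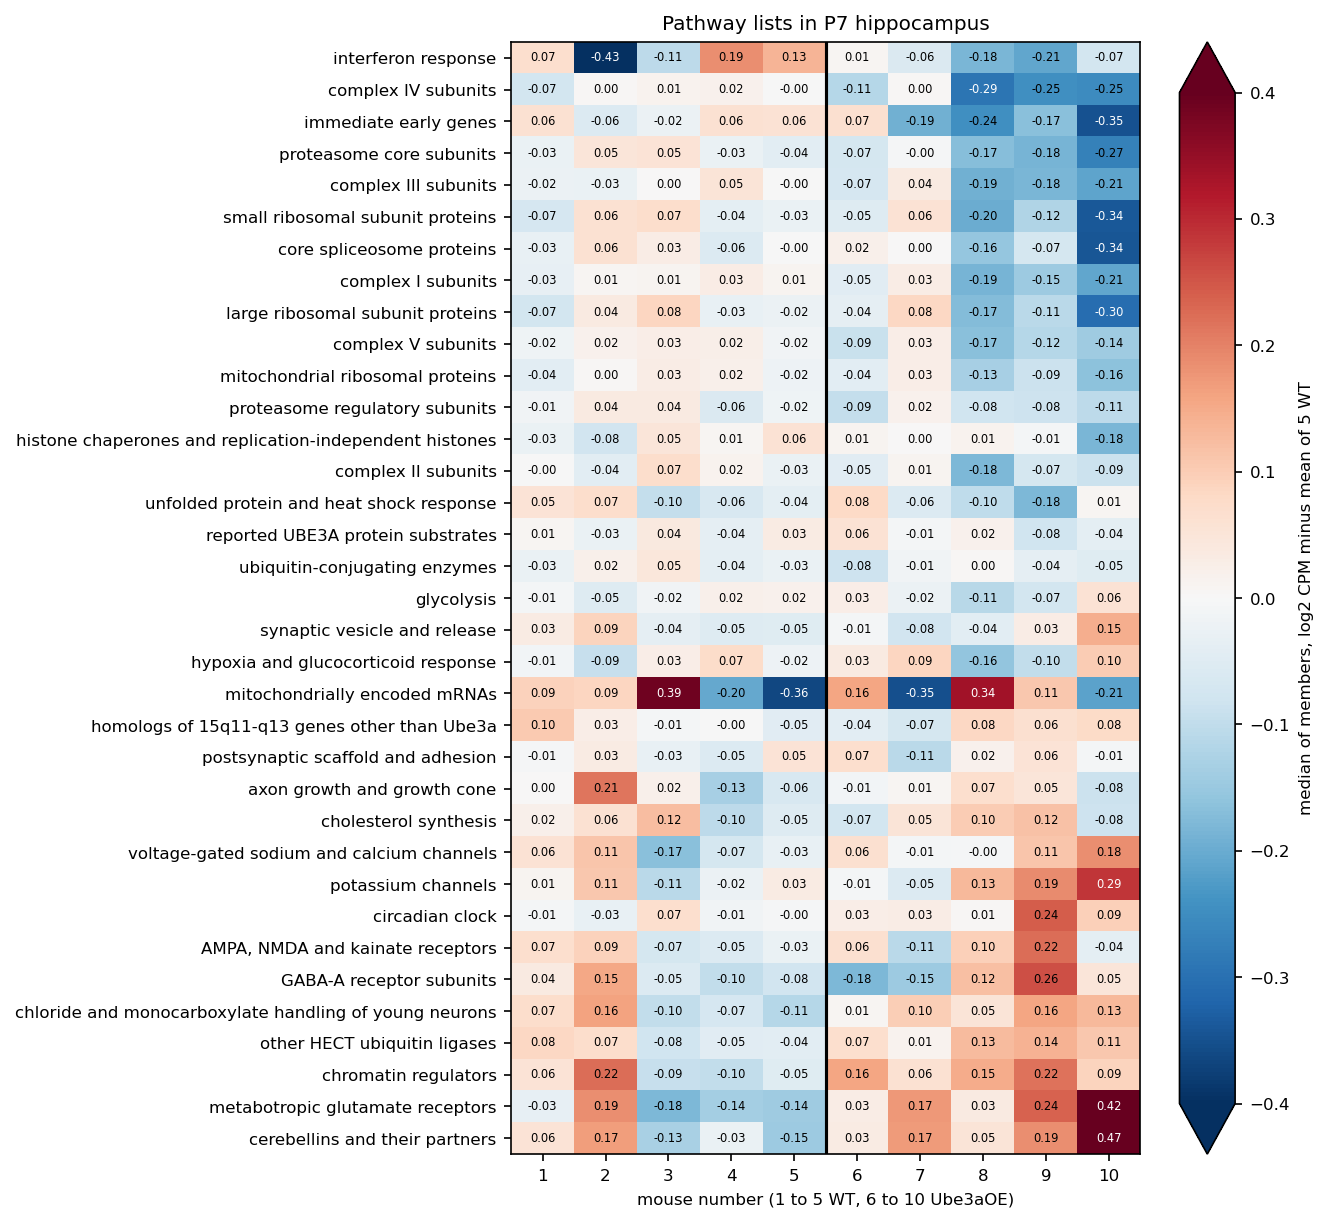
Each pathway list in each hippocampus library, as the median over its tested members of log2 CPM minus the gene's mean in WT (color and printed value; columns are mice, rows ordered by the median log2 fold change). Lists of nuclear respiratory genes, ribosomal proteins and proteasome subunits are below WT in mice 8, 9 and 10, while mouse 7 is near WT in each of them.

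Genes of protein synthesis and breakdown took values like those of respiration. Of 78 tested genes for cytosolic ribosomal proteins 73 had a negative log2 fold change and 12 (15.4%) were called lower, beside 3.5% of all genes (median -0.12). *Rpl38* of the large subunit had -0.25 (SE 0.09) and *Rpl26* -0.18 (SE 0.06). Ribosomal proteins have many processed pseudogenes, and reads that fit more than 1 place were not counted, so their levels are less certain than those of other genes. Of 76 mitochondrial ribosomal protein genes 9 (11.8%) were called lower (median -0.08), among them *Mrps18c* (-0.29, SE 0.09) and *Mrps33* (-0.36, SE 0.13).

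The proteasome bears directly on UBE3A, whose substrates it degrades. All 14 genes of its catalytic core had a negative log2 fold change, and 7 of them (50%) were called lower, beside 3.5% of all genes (median -0.14). *Psmb4* was at 183, 185, 193, 187 and 181 CPM in WT mice 1 to 5 and at 178, 183, 155, 162 and 156 CPM in *Ube3aOE* mice 6 to 10. Mouse 7 was again within WT and mouse 6 below it. *Psma5* and *Psma2*, which form the outer rings of the core, had -0.17 and -0.18 (SE 0.07 each). Among the 19 genes of the regulatory particle, which unfolds ubiquitinated proteins, 3 were called lower (median -0.07), with *Psmc4* at -0.11 (SE 0.05). Core spliceosome proteins gave 5 of 33 (15.2%) called lower (median -0.11). *Snrpg*, a protein of the Sm ring, had non-overlapping groups at 20.3 to 22.1 CPM in WT and 14.4 to 20.2 CPM in *Ube3aOE* mice.

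Many promoters of respiratory genes are known to hold a site of nuclear respiratory factor 1 (NRF1), a transcription factor. The promoters of named members were therefore read from RefSeq (GRCm38.p6), which matched 11197 of the 15220 genes tested. The motifs searched on both strands were GCGC followed by any base and TGCGC (NRF1), AAGATGGCG (YY1) and CCGGAAGT (ETS factors), of which the NRF1 and YY1 motifs can share the letters GCG at their ends. The NRF1 motif was in 28.6% of the 63 OXPHOS promoters, in 23.1% of the 26 proteasome promoters and in 8.77% of the 57 ribosomal ones, beside 10.7% of all promoters. The YY1 motif was in 11.1% of OXPHOS promoters and 3.22% of all, and the ETS motif in 19.3% of ribosomal promoters and 8.17% of all. A match describes the letters in a window and is no evidence of binding. The members shown, 1 each of complex I, complex II and the proteasome core, were picked because they have the NRF1 motif, which is in capitals. They lie at chr16:37654319-37654618 (minus strand), chr9:50603800-50604099 (minus strand) and chr13:14612992-14613291 (plus strand).
Ndufb4: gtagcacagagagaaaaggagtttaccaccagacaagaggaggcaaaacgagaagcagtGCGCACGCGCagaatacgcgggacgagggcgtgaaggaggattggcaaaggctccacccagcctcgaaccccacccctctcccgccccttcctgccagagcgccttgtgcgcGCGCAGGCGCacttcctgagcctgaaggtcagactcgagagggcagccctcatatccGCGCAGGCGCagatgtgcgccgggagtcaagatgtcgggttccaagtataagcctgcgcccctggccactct
Sdhd: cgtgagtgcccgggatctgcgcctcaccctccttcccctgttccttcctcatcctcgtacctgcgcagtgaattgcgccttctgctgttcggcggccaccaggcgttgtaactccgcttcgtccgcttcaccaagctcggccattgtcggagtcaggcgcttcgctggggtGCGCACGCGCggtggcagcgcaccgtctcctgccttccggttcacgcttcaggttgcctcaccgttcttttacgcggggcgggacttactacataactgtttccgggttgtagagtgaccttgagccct
Psma2: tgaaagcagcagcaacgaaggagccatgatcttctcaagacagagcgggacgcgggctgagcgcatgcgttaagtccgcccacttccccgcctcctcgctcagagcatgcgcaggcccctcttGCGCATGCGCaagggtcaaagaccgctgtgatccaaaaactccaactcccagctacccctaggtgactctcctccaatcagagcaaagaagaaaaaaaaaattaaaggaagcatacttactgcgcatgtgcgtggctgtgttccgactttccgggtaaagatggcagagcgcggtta

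The genes of respiration, ribosomes and proteasome share short mRNAs, and the libraries differed in how their counts followed transcript length. The median transcript length was 601 bases over the OXPHOS genes, 630 over the ribosomal protein genes and 839 over the proteasome core, against 1521 over all genes tested. The slope of log2 CPM on log2 transcript length, which gives the shift for each doubling of length, was -0.01, -0.02, -0.03, -0.02 and -0.02 in WT mice 1 to 5 and -0.01, -0.01, 0.03, 0.03 and 0.06 in *Ube3aOE* mice 6 to 10. Mice 8, 9 and 10 lay above all others and mice 6 and 7 within WT. The means differed by 0.04 (two-sided exact permutation *P* = 0.0238), and by 0.05 with the longest transcript of each gene (*P* = 0.0794 by the exact test). For slopes on GC content the two-sided exact permutation test gave *P* = 0.881.

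Calls were spread by length in the same way. In the shortest of 5 classes by median transcript length, 57 to 765 bases, 70 genes (2.30%) were called higher and 206 (6.78%) lower. In the longest class, from 2880 bases on, 207 (6.82%) were called higher and 21 (0.692%) lower. When the trend on length and GC content was removed from each library, 570 of 15175 genes (3.76%) were called higher and 513 (3.38%) lower. In that fit the calls of lower genes were 17 of 76 for OXPHOS (median -0.08), 6 of 78 for cytosolic ribosomal proteins (-0.08) and 4 of 14 for the proteasome core (-0.11). With the longest transcript in place of the median, 399 genes (2.63%) were called higher and 472 (3.11%) lower, and the same 3 lists had 9, 7 and 1 members called lower with medians of -0.05, -0.04 and -0.07. Spliceosome calls went from 5 to 1 with the trend on median length removed, to 2 with that on the longest transcript and to 1 without WT mice 3 and 5. The fit without WT mice 3 and 5 called 1.17% of all genes lower. The 9 calls of mitochondrial ribosomal proteins became 4 in both trend fits, and the 3 of the regulatory proteasome became 0 in both. What makes the libraries differ by transcript length was not tested.

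**Figure D3:**
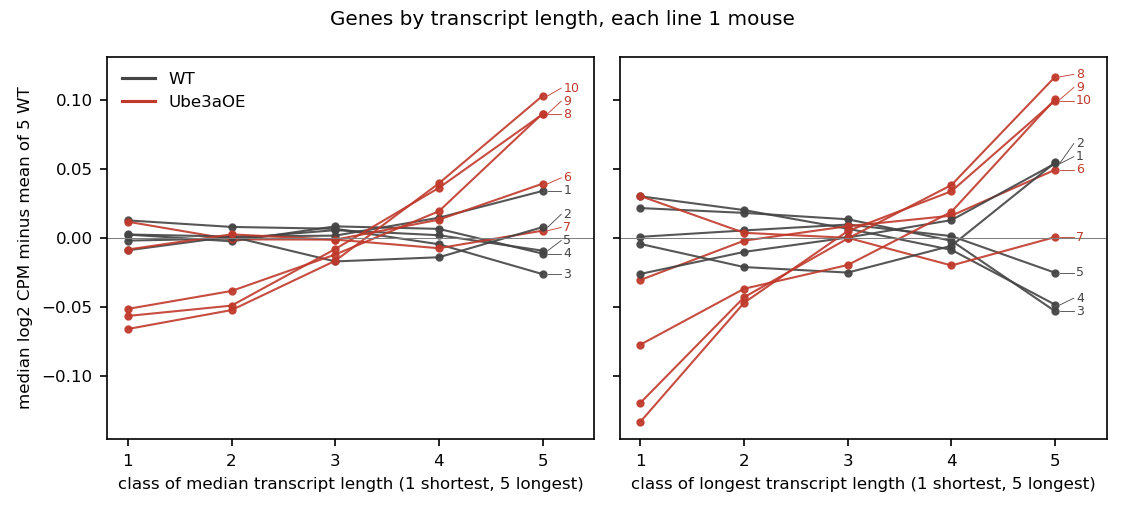
Median over genes of log2 CPM minus the WT mean in 5 classes of transcript length, 1 line per mouse (gray WT, red *Ube3aOE*, mouse number at the right; left by median, right by longest transcript). The lines of mice 8, 9 and 10 run from below 0 in the shortest class to the highest values in the longest class, and those of mice 6 and 7 lie among or next to WT.

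The nuclear respiratory lists kept negative medians without the 5 libraries high in neighbour genes. This fit compares 3 WT mice with *Ube3aOE* mice 6 and 8 only, whose OXPHOS medians per library were -0.06 and -0.18. It leaves out mouse 7, the *Ube3aOE* library within the WT values at 0.03. Without mouse 7 alone the OXPHOS median was -0.15. No trend on length was removed in the fit without the 5 libraries. In that fit 311 genes (2.01%) were called higher and 297 (1.92%) lower. Of the OXPHOS genes 18 were then called lower (median -0.13), of the cytosolic ribosomal proteins 17 (-0.12) and of the proteasome core 0 (-0.13). Without the WT mice 3 and 5, 230 genes (1.48%) were called higher and 181 (1.17%) lower, with 9 OXPHOS genes (median -0.10), 2 ribosomal protein genes (-0.09) and 1 proteasome core gene (-0.12) called lower. With each mouse left out in turn, the OXPHOS median ran from -0.15 to -0.08 and the ribosomal median from -0.17 to -0.07, and both were nearest 0 without mouse 8 or mouse 10.

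In the cortex of the same 10 mice the medians of the nuclear OXPHOS, ribosomal protein and proteasome core lists were near 0. There 371 genes (2.48%) were called higher and 292 (1.95%) lower, and the OXPHOS genes had a median of 0.00 with 1 called higher and 0 lower. The cortex medians were -0.00 for cytosolic ribosomal proteins and -0.03 for the proteasome core. The mRNAs that the mitochondrion encodes had a cortex median of -0.23 with 0 calls, beside -0.00 in hippocampus, and their cortex values overlapped between genotypes. The difference between tissues was tested by gene over 20 libraries. The 2 libraries of a mouse were not paired in this fit, and the list counts below come from it. No gene of 15661 passed for the interaction of genotype and tissue (0%, edgeR), with 286 genes (1.83%) higher in hippocampus and 304 (1.94%) lower at an unadjusted *P* value under 0.05. Among the OXPHOS genes 18 of 76 were at that threshold on the lower side, among cytosolic ribosomal proteins 3 of 78, among mitochondrial ones 6 of 76 and in the proteasome core 0 of 14. The trend on transcript length was not removed in the cortex and interaction fits, and its slopes were measured in hippocampus only. The part of transcript length in the difference between tissues was not tested.

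**Figure D4:**
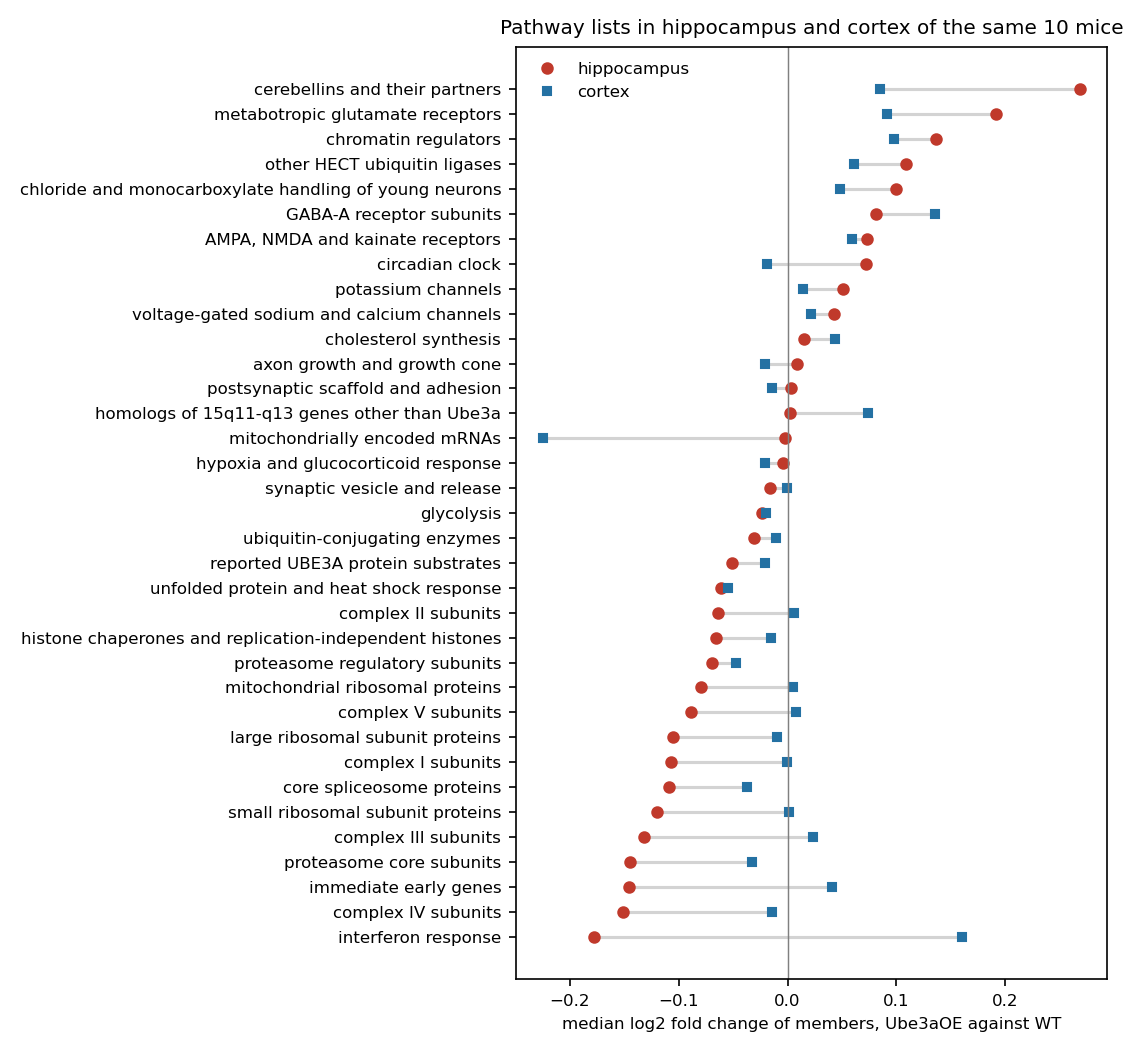
Median log2 fold change of the tested members of each pathway list in hippocampus (red circles) and in cortex of the same mice (blue squares), *Ube3aOE* against WT. No trend on transcript length was removed in either tissue. Lists of nuclear respiratory genes and of ribosomal proteins lie between -0.15 and -0.06 in hippocampus and near 0 in cortex, mitochondrially encoded mRNAs at -0.00 in hippocampus and -0.23 in cortex, while chromatin regulators lie above 0 in both.

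Positive values prevailed among chromatin regulators, the large enzymes and scaffolds that write, read and erase histone marks or move nucleosomes. Of 55 genes tested, 54 had a positive log2 fold change, 12 (21.8%) were called higher, beside 3.71% of all genes, and 0 lower (median 0.14). *Bahcc1*, which binds a repressive mark of histone H3, was at 29.3, 31.2, 26.4, 25.6 and 25.6 CPM in WT mice 1 to 5 and at 33.6, 34.2, 32.6, 41.9 and 35.1 CPM in *Ube3aOE* mice 6 to 10. The groups did not overlap (log2 fold change 0.36, SE 0.09). They also did not overlap for *Auts2*, a partner of Polycomb complexes in neurons (0.22, SE 0.06), and for the chromodomain helicase *Chd9* (0.23, SE 0.07), which was picked after its values were seen. In the list 3 of 55 genes had no overlap on the higher side, beside 0.499% of all genes. The zinc finger gene *Zmym4* had 0.28 (SE 0.07). Per library the list overlapped between genotypes, since WT mouse 2 was at 0.22 and the *Ube3aOE* mice at 0.16, 0.06, 0.15, 0.22 and 0.09.

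These genes are long, with a median longest transcript of 8578 bases against 3386 over all genes. After removal of the trend on median length, 11 were called higher (median 0.09), and after removal of the trend on the longest transcript 4 were (median 0.03). Of all genes, 3.76% and 2.63% were called higher in these fits. Without the 5 libraries high in neighbour genes, 20 were called higher (median 0.19), beside 2.01% of all genes. Without WT mice 3 and 5 there were 7 (median 0.09), beside 1.48% of all genes. The fit without the 5 libraries leaves out WT mouse 2, the highest WT library for this list. Without mouse 2 alone the median was 0.18. In cortex 9 were called higher and 0 lower (median 0.10), in a fit that called 2.48% of all genes higher and 1.95% lower. Histone chaperones and replication-independent histones, whose mRNAs are shorter, had 3 of 11 genes with a positive value and 1 called lower, the histone gene *H2afv* (-0.25, SE 0.11).

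**Figure D5:**
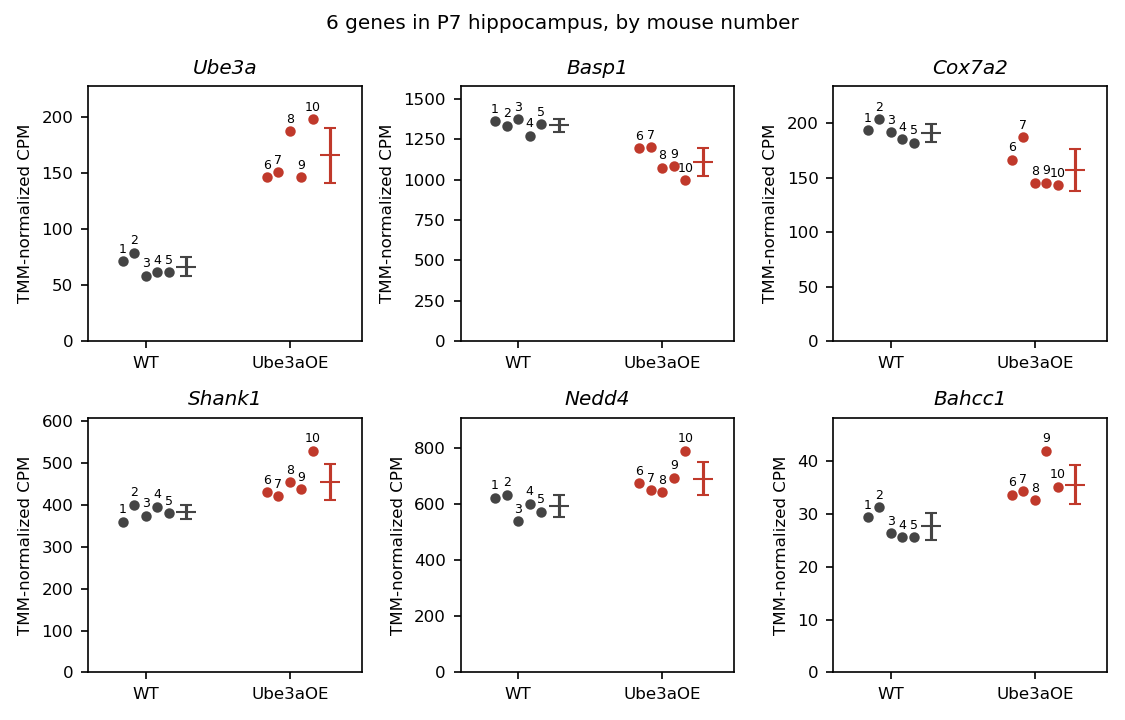
TMM-normalized CPM of 6 genes in the hippocampus of each mouse (points with mouse numbers, bars give mean and SD, n = 5). Only *Ube3a* passes the adjusted threshold; *Basp1*, *Shank1*, *Nedd4* and *Bahcc1* have groups that do not overlap, and in *Cox7a2* mouse 7 lies within WT.

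Within the ubiquitin pathway, the other HECT ligases mostly had positive values. Of 24 tested, 20 had a positive log2 fold change and 3 (12.5%) were called higher (median 0.11, and 0.06 in cortex with 0 calls). *Nedd4*, which ubiquitinates membrane proteins, was at 622, 633, 538, 601 and 573 CPM in WT mice 1 to 5 and at 675, 649, 643, 693 and 789 CPM in *Ube3aOE* mice 6 to 10. These groups did not overlap (log2 fold change 0.22, SE 0.07), nor did those of its relative *Wwp2* (0.15, SE 0.05), and *Trip12* had 0.20 (SE 0.08). In 2 of the 24 genes the groups did not overlap on the higher side, beside 0.499% of all genes. With the trend on the longest transcript removed the median of the list was 0.04 with 3 calls, in a fit that called 2.63% of all genes higher. Without the 5 libraries high in neighbour genes the median was 0.08 with 5 called higher. That fit called 2.01% of all genes higher. Without WT mice 3 and 5, 16 of 24 had a positive value and 0 were called. That fit called 1.48% of all genes higher, beside 3.71% with all 10 libraries. The E2 enzymes had 5 of 30 called lower (16.7%) and a median of -0.03. The calls of E2 genes, whose median transcript length was 879 bases, fell to 2 with either trend on length removed, to 2 without the 5 libraries high in neighbour genes and to 1 without WT mice 3 and 5. The last 2 fits called 1.92% and 1.17% of all genes lower, beside 3.5% with all 10 libraries. In 3 E2 genes the groups did not overlap in the fit of all 10 libraries, beside 0.696% of all genes. *Ube2a*, which acts with RAD18 in DNA repair, was at 49.1 to 53.7 CPM in WT and at 43.1 to 47.3 CPM in *Ube3aOE* mice, and *Ube2e2* at 85.3 to 98.1 and 75.9 to 85.1 CPM. The third, picked after its values were seen, was *Ube2s*, which extends ubiquitin chains in mitosis (-0.16, SE 0.07), and *Ube2b* missed by 1 mouse (-0.16, SE 0.05).

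The mRNAs of proteins reported as UBE3A substrates gave few calls. Of 16 genes 7 had a positive log2 fold change and 1 was called lower, *Lamtor1*, a lysosomal anchor of mTORC1 signalling (-0.14, SE 0.06). *Arhgef15*, which encodes ephexin-5, was at 13.5 to 21 CPM in WT and 13.0 to 29.0 CPM in *Ube3aOE* mice (0.40, SE 0.23). *Peg10*, a paternally expressed gene of retroviral origin, was at 74.5 CPM in mouse 9 and at 15.2 to 29.5 CPM in the other 9 libraries. UBE3A acts on proteins, which these counts do not measure.

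The neighbours of *Ube3a* in the region homologous to human 15q11-q13 had a median of 0.00 over 13 genes tested, with 1 called higher. That gene, the paternally expressed *Magel2*, was at 10.2, 7.74, 6.97, 11.3 and 6.65 CPM in WT mice 1 to 5 and at 8.62, 15.6, 10.9, 19.4 and 20.3 CPM in *Ube3aOE* mice 6 to 10 (log2 fold change 0.80, SE 0.25). Its groups overlapped, and the 3 highest libraries were those of mice 7, 9 and 10. *Snrpn*, next to the imprinting centre, had -0.05 (SE 0.05), and the GABA-A receptor gene *Gabra5* -0.16 (SE 0.10).

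Synaptic genes had no common direction as lists. Among 35 genes of the synaptic vesicle and release 17 had a positive value and 3 were called lower, among them *Snap25*, a SNARE protein of vesicle fusion, which was at 826 to 972 CPM in WT and 706 to 901 CPM in *Ube3aOE* mice (-0.23, SE 0.07), *Cplx2*, a regulator of fusion (-0.26, SE 0.11), and *Doc2a*, a calcium sensor of release (-0.18, SE 0.08). Of 30 postsynaptic scaffold and adhesion genes 3 were called higher and 1 lower, *Nrgn*, which encodes the calmodulin-binding neurogranin (-0.37, SE 0.16; list median 0.00). *Dlgap3* had 0.25 (SE 0.10) and *Iqsec1* 0.25 (SE 0.07). *Shank1*, a scaffold of the postsynaptic density, had groups that did not overlap, at 360 to 400 CPM in WT and 420 to 529 CPM in *Ube3aOE* mice (0.25, SE 0.07). The postsynaptic genes have a median longest transcript of 5862 bases. With the trend on median length removed, 1 of them was called higher and 2 lower (median -0.06). With the trend on the longest transcript removed, 0 were called higher and 3 lower (median -0.07). The growth cone list gave 1 gene called higher, *Nfasc* (0.18, SE 0.08), and 4 lower of 22, with *Basp1*, a membrane phosphoprotein of growing axons, at 1363, 1335, 1375, 1273 and 1344 CPM in WT mice 1 to 5 and 1195, 1203, 1075, 1085 and 998 CPM in *Ube3aOE* mice 6 to 10 (-0.27, SE 0.06). *Basp1* had the smallest *P* value of the genes with lower values, and its groups did not overlap. The 4 genes called lower were 18.2% of the growth cone list, beside 3.5% of all genes. With the trend on the longest transcript removed, 0 growth cone genes were called higher and 1 lower.

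All tested genes of the cerebellin and metabotropic glutamate receptor lists had positive log2 fold changes. Of the 9 genes of cerebellins and their partners 2 (22.2%) were called higher, beside 3.71% of all genes (median 0.27). Among them was the presynaptic organizer *Nrxn2* (0.27, SE 0.09). *Cbln1*, a secreted synapse organizer, was at 26.2, 58.9, 23.4, 27.7 and 22.5 CPM in WT mice 1 to 5 and at 23.7, 41.3, 29.5, 32.0 and 115 CPM in *Ube3aOE* mice 6 to 10. Its log2 fold change of 0.61 (SE 0.49, adjusted *P* = 0.751, edgeR) was -0.00 without mouse 10. *Cbln1* is also in the thalamus and habenula list, whose summed level was highest in mouse 10 at 1451 CPM. The median of that list, 0.61, is the value of *Cbln1* itself. Of the 7 metabotropic glutamate receptors 1 (14.3%) was called higher, *Grm8* (0.75, SE 0.27), which was at 17.2 and 18.1 CPM in mice 9 and 10. Without the 5 libraries, the medians of the cerebellin and metabotropic lists were 0.12 and 0.12, and without mouse 10 they were 0.08 and 0.11. With the trend on the longest transcript removed they were 0.13 and 0.12, with 8 of 9 and 6 of 7 genes positive. Among AMPA, NMDA and kainate receptors 3 of 20 (15%) were called higher, beside 3.71% of all genes. They were the NMDA receptor subunits *Grin3a* (0.46, SE 0.16) and *Grin2d* (0.41, SE 0.16) and the kainate receptor *Grik2* (0.13, SE 0.06). With the trend on the longest transcript removed, 1 was called higher and 2 lower, in a fit that called 2.63% of all genes higher and 3.11% lower. GABA-A receptor subunits gave 0 calls of 11.

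Ion channels, chloride handling and activity-dependent genes showed small differences. Of 36 potassium channel genes 2 were called higher and 1 lower (median 0.05), with *Kcnd3* and *Kcnd2*, subunits of A-type channels, at 0.25 (SE 0.09) and 0.18 (SE 0.07) and the sodium-activated channel *Kcnt2* at -0.33 (SE 0.15). Sodium and calcium channels gave 2 higher and 1 lower of 26. *Scn4b*, an auxiliary sodium channel subunit that is high in striatum, had 1.82 (SE 0.74), with mouse 9 at 20.8 CPM. Its value was -0.23 without the 5 libraries high in neighbour genes, a fit that leaves out mouse 9. The pacemaker channel *Hcn4* had 0.46 (SE 0.19). *Slc12a5*, the chloride exporter KCC2 that makes GABA inhibitory as neurons mature, was at 207 to 266 CPM in WT and 225 to 366 CPM in *Ube3aOE* mice (0.22, SE 0.12). Of 24 immediate early genes, which neuronal firing induces, 20 had a negative value and 2 were called lower (median -0.15), *Npas4* (-0.56, SE 0.24) and *Nr4a1* (-0.24, SE 0.10). Per library the list was at -0.06 to 0.06 in WT and at 0.07, -0.19, -0.24, -0.17 and -0.35 in *Ube3aOE* mice 6 to 10, so that mice 7 to 10 lay below all WT values and mouse 6 just above them. The cortex median of this list was 0.04, and no member was at the unadjusted threshold for the interaction. The median was -0.15 with the trend on the longest transcript removed and -0.12 without the 5 libraries. Glycolysis and cholesterol synthesis had medians of -0.02 and 0.02, with *Aldoc* as the only call.

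The other lists gave 3 calls or fewer each. Oligodendrocyte precursors had 10 of 12 genes with a positive value and 1 called higher, their growth factor receptor *Pdgfra*, which was at 112 to 142 CPM in WT and 129 to 143 CPM in *Ube3aOE* mice (0.18, SE 0.07). Of the 11 mural cell genes tested, the receptor *Notch3* of pericytes and smooth muscle was called higher (0.47, SE 0.14), with 17.8 to 24.5 CPM in WT and 23.2 to 39.7 CPM in *Ube3aOE* mice. Genes of fibroblasts and meninges, red blood cells and the interferon response gave 0 calls among 12, 5 and 10 tested. The circadian clock list had *Rora* (1.17, SE 0.51) and *Rorb* (0.57, SE 0.24), which thalamic neurons express as well, called higher and *Tef* (-0.15, SE 0.07) lower. Stress lists gave 1 call each on the lower side, the chaperonin *Hspe1* (-0.19, SE 0.07) and the peptide hormone *Adm* (-0.58, SE 0.26). *Wnk2*, a kinase that acts on chloride transporters, had 0.23 (SE 0.09), and of the ependymal genes *Rsph1* of the ciliary radial spoke was called higher (0.41, SE 0.19).

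The single genes with the smallest *P* values beyond those named so far had adjusted *P* values of 0.668 (edgeR). Among those with higher values were *Myh15*, a myosin gene at 0.235 to 0.502 CPM in WT and 0.802 to 1.52 CPM in *Ube3aOE* mice, and *Tdrd1*, a Tudor domain gene at 1.29 to 2.52 and 2.78 to 5.48 CPM. The motor protein gene *Myo7a* had 0.30 (SE 0.07), *Smcr8*, a partner of C9ORF72 in autophagy, 0.26 (SE 0.06), and *Ubap2* 0.28 (SE 0.07). The cilia genes *Cfap221* and *Dnah6* had 1.23 (SE 0.32) and 0.72 (SE 0.19), and *D8Ertd82e* had 0.27 (SE 0.07). The ependymal list, whose cells bear motile cilia, was at 33.9 to 81.2 CPM in WT and 56.6 to 82.1 CPM in *Ube3aOE* mice.

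Among the genes with lower values, *Pantr1*, a long noncoding RNA beside *Pou3f3*, was at 71.5 to 85.1 CPM in WT and 47.0 to 71.2 CPM in *Ube3aOE* mice, and *Msrb2*, a mitochondrial methionine sulfoxide reductase, at 13.0 to 15.9 and 7.79 to 12.0 CPM. *Polr2d*, a subunit of RNA polymerase II, had -0.30 (SE 0.07) and *Ypel3* -0.25 (SE 0.06). The remaining names are mostly short mRNAs with broad roles: *Tomm7* of the mitochondrial import pore (-0.29, SE 0.08), *Lamtor4* of the lysosomal Ragulator (-0.28, SE 0.07), *Srp14* of the signal recognition particle (-0.27, SE 0.07) and the thioesterase *Acot13* (-0.26, SE 0.07). *Slc30a3*, which loads zinc into synaptic vesicles, had -0.42 (SE 0.11), and 1 of its *Ube3aOE* values overlapped with WT.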

How the data were processed

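RNA from hippocampus and cortex was taken with the RNeasy mini plus kit and made into TruSeq Stranded mRNA libraries. The authors deposited raw counts of reads per gene for each library (47729 genes), with HISAT2 2.1.0, HTSeq 0.11.2 and GRCm38/mm10 named in the submitters' processing notes. The strand setting of the counting and library batches are not given in the sources used here. The 5 lines for reads outside genes, ambiguous, unaligned or not unique were left out, which kept 76.4% to 81.2% of the hippocampus reads. Genotype, mouse number and sex came from the labels. Of the identifiers 99.1% matched GENCODE M21, which gave positions and transcript lengths.

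Genotypes were compared in the 10 hippocampus libraries with edgeR 4.0.16 in R 4.3.3. Counts were filtered with filterByExpr, scaled by TMM and tested by the quasi-likelihood F test with robust dispersion, and *P* values were adjusted by Benjamini-Hochberg. The interaction with tissue was fitted over 20 libraries without a block for the mouse, and with that block as an alternative. Standard errors rest on the spread between mice (biological coefficient of variation 14.9%). Exact permutation tests, two-sided over 252 assignments, served for single values. A prior count of 2 was added before the log2 of CPM in list values. The code was tested on simulated counts. Plots used Python 3.11.15.

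The alternatives were DESeq2 1.42.0, limma 3.58.1 (voom), no filter, labelled sex as a covariate, all 20 libraries, spline trends (5 degrees of freedom) on transcript length and on GC removed, and each mouse left out. Fits without WT mice 3 and 5, without 5 libraries high in neighbour-tissue genes and with the longest transcript were chosen after seeing the data. The members and lists were chosen with earlier results of these data known. The named genes are *Ube3a*, *Cbln1*, sex-linked genes, the 12 smallest unadjusted *P* values in each direction without clone names, and for every list the 3 smallest *P* values, with the first 2 markers of a cell list. Further genes are said to have been picked after their values were seen, or are markers of neighbour tissue, or passed an alternative (*Kcne4*). Some genes that this rule names are not reported here. Mouse numbers pair the tissues because they name the animal. The deviations of a mouse's 2 libraries from their group means had correlations of 0.149 to 0.248 in 9 mice and -0.0367 in mouse 4.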

Additional observations from a re-analysis of the deposited data

Results flagged for a closer look

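Values are listed here when the highest or lowest of the 5 libraries of a genotype stood farther from its neighbour than Dixon's 95% limit of 0.71 of the group's range. In 466 such comparisons 53 values did so, 25 of them in *Ube3aOE* mice, and chance marks about 1 in 20. What sets these libraries apart was not tested.

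WT mouse 2 was low in glia and high in neocortical genes. Its summed levels were 3229 CPM for astrocytes, 258 CPM for microglia, 1483 CPM for neocortical layers and 102 CPM for striatum, and its median deviations from WT were -0.45 for astrocytes and -0.49 for microglia. Among single genes it was alone at 58.9 CPM for *Cbln1*, 59.6 CPM for *Cux2*, 69.1 CPM for *Prox1*, 65.3 CPM for *Npnt*, 121 CPM for *Aqp4*, 8.62 CPM for *P2ry12*, 663 CPM for *Stmn4*, 165 CPM for *Wnk2* and 97.2 CPM for *Ypel3*.

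WT mouse 4 carried thalamic and septal genes, at a summed 640 CPM for thalamus and habenula and 81.0 CPM for cholinergic and septal neurons, with 1537 CPM for CA pyramidal neurons and a deviation of -0.10 for interneurons. It stood alone for *Tcf7l2* (231 CPM), *Lef1* (24.2 CPM), *Slc17a6*, a vesicular glutamate transporter of subcortical neurons (181 CPM), *Foxp2* (26.1 CPM) and *Mbp* (109 CPM). Other WT values of this kind were the deviation of complex IV genes in mouse 1 (-0.0732), that of clock genes in mouse 3 (0.0670), *Cspg4* in mouse 1 (24.7 CPM) and *Pantr1* in mouse 5 (85.1 CPM).

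In *Ube3aOE* mice, mouse 7 stood apart in choroid plexus genes (2047 CPM summed, 1939 CPM for *Ttr*, 14.1 CPM for *Folr1*) and in the regulatory proteasome (0.0173). Mouse 8 had the lowest slope on GC content (-1.17) and 139 CPM of *Wnk2*. Mouse 9 held striatal genes, with 786 CPM summed, a median deviation of 2.59 and 34.0 CPM for *Drd1*, 17.1 CPM for *Drd2*, 65.6 CPM for *Adora2a*, 146 CPM for *Penk* and 20.8 CPM for *Scn4b*. It also had 1101 CPM for neocortical layers, 4.72 CPM for the acetylcholine transporter *Slc18a3*, 160 CPM for *Gad2*, 74.5 CPM for *Peg10* and 41.9 CPM for *Bahcc1*. Mouse 10 stood apart at 735 CPM for Cajal-Retzius cells, 186 CPM for red blood cells, -0.18 for histone chaperones and replication-independent histones, 115 CPM for *Cbln1*, 22.8 CPM for the nicotinic receptor *Chrna3*, 14.8 CPM for *C1ql2* and 1.52 CPM for *Myh15*.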

How the results depend on the processing

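*Ube3a* rose under every alternative run, with a log2 fold change of 1.23 to 1.40. With labelled sex as a covariate, a label that the sex-linked genes contradict in WT mice 3 and 5, 2 genes passed, the second being the potassium channel subunit *Kcne4* (1.90, adjusted *P* = 0.0239, edgeR; 1.67 and 0.668 without sex, and 0.51 without the 5 libraries high in neighbour genes), and 1 gene passed in each other setting. The 1098 genes at an unadjusted *P* value under 0.05 became 637 to 1910 with each mouse left out (637 without mouse 10, 695 without mouse 5, 722 without mouse 3, 1910 without mouse 6), 608 without the 5 libraries high in neighbour genes and 411 without WT mice 3 and 5, fits with fewer libraries. The difference in length slope of 0.0416 was 0.0494 with the longest transcript (exact *P* = 0.0794), and ran from 0.0330 to 0.0498 with each mouse left out. Without WT mouse 2, 3, 4 or 5 its exact *P* was 0.0556 to 0.0635. The difference in GC slope of 0.0721 ran from -0.0630 to 0.373, turning to -0.0127, -0.0278, -0.0288 and -0.0630 without mouse 1, 2, 6 or 7. *Cbln1* ran from -0.00437 (without mouse 10) to 0.961 (without mouse 2), and *Scn4b* turned to -0.23 without the 5 libraries, mouse 9 among them. With the mouse as a replicate block for the paired tissues, 0 genes passed for the interaction and 944 had an unadjusted *P* value under 0.05, against 590 without it. The cause of these shifts was not tested. With 5 mice per genotype and 1 gene past the threshold, small differences of single genes cannot be told from the spread between mice.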
